A study of Mus musculus with 96 samples.

Results

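The peaks described here are the ATAC-seq peaks that the authors named for a mitochondrial ribosomal protein gene, that is a gene symbol beginning Mrpl or Mrps followed by a digit, and that lie within 10 kb of its transcription start site (TSS). There were 95 such peaks of 46832 in the hepatocyte table, belonging to 65 genes, and 79 of 30170 in the macrophage table, belonging to 63 genes. They are called mitoribosomal peaks below. ATAC-seq reads mark DNA that the Tn5 transposase can reach, so a peak is a stretch of open chromatin and its normalized read count is a measure of how open it was. Each peak was 200 bp wide, and a peak within 1 kb of the TSS is called a promoter peak. The authors assigned each peak to the gene with a nearby TSS, so a name does not show which gene a peak acts on.

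Nuclei were isolated from livers of female mice by INTACT, in which nuclei of 1 cell type carry a tag and are captured on beads, from hepatocytes in one set of mice and from macrophages in another. Food was removed at zeitgeber time (ZT) 12, the start of the dark phase, and mice were sampled after 3 h (ZT15), 8 h (ZT20), 16 h (ZT4) or 24 h (ZT12) of fasting. At each time a separate group had been fed ad libitum, and those fed mice were the controls for that time alone. Every group held 4 mice, which gives 16 groups and 64 mice. The 32 fed controls share with the fasted mice the nuclear tag of their set. The strain, the age and the driver of the tag are not given in the sources used here. Macrophage nuclei of each mouse were sequenced in 2 runs, which the deposited table holds as 1 value per mouse.

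The mitochondrial ribosome translates the few proteins encoded in mitochondrial DNA, all of them subunits of the respiratory chain and of ATP synthase. It consists of a large and a small subunit, together with RNAs encoded in the mitochondrial genome. Most proteins of the large subunit carry the prefix Mrpl and most of the small subunit the prefix Mrps, with exceptions. All of its proteins are encoded in the nucleus, translated in the cytosol and imported. Their genes are expressed in nearly every cell, and their promoters are typically rich in GC and often carry sites for NRF1, ETS proteins such as GABPA, and YY1. During fasting, hepatocytes turn from glycolysis and lipid synthesis to fatty acid oxidation, ketogenesis and gluconeogenesis, which depend on mitochondria.

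Promoter sequence is shown for 6 genes: the promoters of Mrpl50, Mrpl9 and Mrps18b were open in fasted hepatocytes beyond the shift of other promoters, that of Mrpl36 had the lowest p of the promoter peaks that opened at 8 h, Mrpl17 carried the peak with the largest change, and Mrps14 had the most open promoter in both cell types. Each line gives the 250 bases before the RefSeq start of the gene, in GRCm38.p6, 5′ to 3′ on the gene's strand. Capitals mark exact matches, on either strand, to 1 of 10 short motifs. The NRF1 motif was searched as GCGCATGCG, the motif of ETS proteins as CCGGAAG, and the YY1 motif as AAGATGGCG. For SP and KLF proteins the letters were GGGCGGG, for the CRE element TGACGTCA, and for the E-box CACGTG. The CCAAT box was searched by its own letters. For direct-repeat nuclear receptors the letters were CAAAGGTCA, for the glucocorticoid receptor ACANNNTGT, and for FOXO proteins TGTTTAC. The windows are chr4:49521084-49521333 for Mrpl50, chr13:73330759-73331008 for Mrpl36, chr3:94443086-94443335 for Mrpl9, chr7:105811088-105811337 for Mrpl17, chr17:35916441-35916690 for Mrps18b and chr1:160194965-160195214 for Mrps14. Mrpl50, Mrpl17 and Mrps18b lie on the minus strand.
Mrpl50: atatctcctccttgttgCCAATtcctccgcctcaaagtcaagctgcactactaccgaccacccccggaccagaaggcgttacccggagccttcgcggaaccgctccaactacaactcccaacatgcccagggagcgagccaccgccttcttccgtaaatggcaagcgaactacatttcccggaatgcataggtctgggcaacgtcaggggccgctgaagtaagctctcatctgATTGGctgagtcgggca
Mrpl36: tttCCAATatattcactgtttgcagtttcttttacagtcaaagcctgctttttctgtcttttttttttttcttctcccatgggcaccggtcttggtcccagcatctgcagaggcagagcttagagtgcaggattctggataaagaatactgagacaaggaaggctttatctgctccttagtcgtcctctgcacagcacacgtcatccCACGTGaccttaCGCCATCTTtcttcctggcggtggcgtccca
Mrpl9: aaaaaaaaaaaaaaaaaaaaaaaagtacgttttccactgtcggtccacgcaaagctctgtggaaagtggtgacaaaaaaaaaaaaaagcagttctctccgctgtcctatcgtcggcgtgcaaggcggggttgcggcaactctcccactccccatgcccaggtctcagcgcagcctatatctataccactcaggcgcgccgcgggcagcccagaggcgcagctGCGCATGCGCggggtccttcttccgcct
Mrpl17: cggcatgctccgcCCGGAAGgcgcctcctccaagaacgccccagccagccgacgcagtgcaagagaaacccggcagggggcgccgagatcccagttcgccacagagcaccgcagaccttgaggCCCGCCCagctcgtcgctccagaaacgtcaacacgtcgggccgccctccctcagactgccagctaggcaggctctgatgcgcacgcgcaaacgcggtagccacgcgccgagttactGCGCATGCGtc
Mrps18b: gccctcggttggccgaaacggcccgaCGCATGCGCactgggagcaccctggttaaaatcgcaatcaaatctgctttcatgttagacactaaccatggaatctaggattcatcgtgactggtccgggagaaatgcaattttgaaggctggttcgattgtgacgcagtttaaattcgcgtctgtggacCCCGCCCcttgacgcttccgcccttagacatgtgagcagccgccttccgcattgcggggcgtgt
Mrps14: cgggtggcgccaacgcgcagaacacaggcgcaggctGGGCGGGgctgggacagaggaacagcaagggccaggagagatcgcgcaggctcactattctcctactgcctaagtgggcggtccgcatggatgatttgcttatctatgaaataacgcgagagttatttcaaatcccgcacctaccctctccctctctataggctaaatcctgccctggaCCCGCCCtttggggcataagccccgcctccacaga
Mrpl9, Mrpl17 and Mrps18b held the NRF1 letters, Mrpl36 the YY1 letters and an E-box, and Mrpl50 a CCAAT box 17 bases before its start.

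There were 55 RefSeq windows of mitoribosomal genes under a mitoribosomal promoter peak of either cell type. They came from 52 genes and held 300 bases each, 250 before and 50 after the start. The NRF1 letters were in 12.7% of these 55. They were in 4.57% of the 8540 windows of other genes under a hepatocyte promoter peak and in 1.75% of all 32851 windows. The ETS letters were in 30.9%, 20.5% and 8.86% of these sets, and the YY1 letters in 9.09%, 3.47% and 1.40%. SP/KLF letters were in fewer mitoribosomal windows (41.8%) than in other windows under a peak (53.5%), and were in 25.6% of all windows. The CCAAT box was in 47.3%, 40.8% and 37.4%, and the E-box in 7.27%, 11.3% and 7.15%. Motifs of factors known for roles in fasting were rare here: FOXO letters in 3.64% of mitoribosomal windows, 2.62% of other windows under a peak and 3.65% of all; glucocorticoid receptor letters in 3.64%, 3.48% and 6.85%; and CRE letters in 1.82%, 3.61% and 1.79%. The direct-repeat letters were in 0 of the 55 windows, in 0.48% of other windows under a peak and in 0.478% of all. The ETS and YY1 letters, and the CCAAT box and the others, were counted separately, so 1 window can hold several. A match is letters only, and an absence says only that these letters are not in the window.

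A promoter can also serve a neighbour that starts on the opposite strand within 1 kb. Of the 52 genes, 14 had such a head-to-head partner (26.9%), against 1457 of 7531 other genes with a window under a hepatocyte promoter peak (19.3%). Mrpl46 and Mrps11, of the large and the small subunit, share 1 such promoter with each other, and Mrps12 shares one with Sars2, the mitochondrial seryl-tRNA synthetase.

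RefSeq lists 78 protein-coding genes with such names, of which 66 had a mitoribosomal peak in 1 table or the other and 62 in both. The hepatocyte genes were 43 of the large subunit and 21 of the small subunit, and the macrophage genes 43 and 19. Mrps36, which has the name but is a part of the oxoglutarate dehydrogenase complex, was the remaining gene in each table. Most peaks lay at the TSS: 81 of 95 hepatocyte peaks and 73 of 79 macrophage peaks were promoter peaks. The authors annotated 67 of the hepatocyte peaks as promoter-TSS, 19 as intron, 5 as intergenic, 2 as exon, 1 as 5′ UTR and 1 as 3′ UTR. Both tables listed 74 peaks at the same coordinates, which left 21 in hepatocytes alone and 5 in macrophages alone. Every mitoribosomal peak passed the filter on low values (a mean of at least 10 normalized reads over the 32 mice of its table).

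The promoters were about as open as other promoters. In hepatocytes the median mitoribosomal promoter peak had a mean of 73.6 normalized reads, against 75.3 for the 16270 other promoter peaks, and in macrophages 108 against 100. Levels ran from 23.1 to 236 in hepatocytes and from 26.9 to 320 in macrophages. Both peaks of Mrps14, a protein of the small subunit, and the peak 29 bp upstream of Mrpl34, of the large subunit, were the 3 highest in each cell type. The lowest in hepatocytes were the peaks at 335 bp in Mrpl38, 26 bp in Mrps7 and 2894 bp in Mrpl23. In macrophages the lowest were those 5455 bp upstream of Mrpl4, 7 bp upstream of Mrpl3 and 7447 bp upstream of Mrpl38.

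In hepatocytes, the difference between fasted and fed mice at mitoribosomal promoters grew with the length of the fast, by about as much as at promoters in general. The level in fasted mice was itself highest at 16 h, and the difference was largest at 24 h, when the level in fed mice was lowest. Fasted and fed mice of each time were compared with limma on log2(value + 2), and a peak passed at a Benjamini-Hochberg adjusted p under 0.05 over all tested peaks. A peak that passed and was higher in fasted mice is called opened, and one that was lower is called closed. A log2 fold change understates the change of low peaks on this scale. A lower value cannot show whether fewer nuclei had the site open or each nucleus was less open: these cannot be told apart. After 3 h 5 of the 95 peaks opened (5.26%) where 11.3% of all tested peaks opened. After 8 h 15 opened (15.8%) against 20.3% of all, after 16 h 24 (25.3%) against 19% of all, and after 24 h 43 (45.3%) against 25.3% of all. Closed peaks numbered 3, 3, 1 and 1 at these times, where 10.3%, 13.7%, 12.8% and 11.4% of all tested peaks closed. At 24 h all 4 fasted mice lay above all 4 fed mice at 44 of the 95 peaks, and below them at 1. This was not counted for other peaks, so it does not set the mitoribosomal peaks apart. Of the 16270 other promoter peaks, 86.5% had a log2 fold change above 0 at 24 h.

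**Figure D1:**
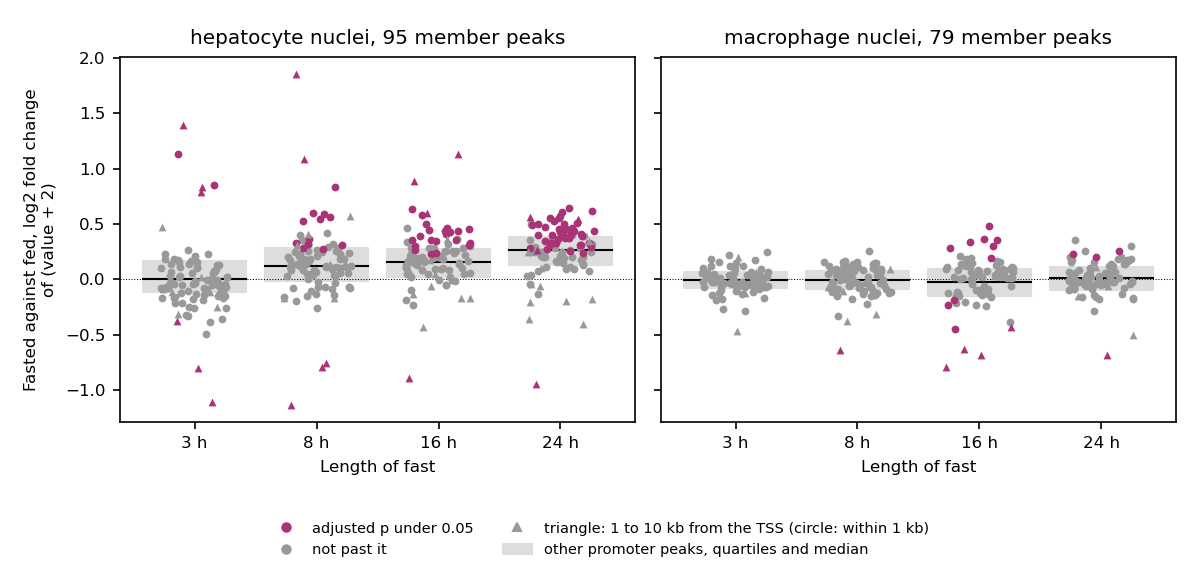
Log2 fold change of (value + 2), fasted against fed, for every mitoribosomal peak (member peak) at each length of fast (x axis) in hepatocyte nuclei (left) and macrophage nuclei (right), with 4 mice in each group. Purple symbols passed an adjusted p of 0.05, triangles lie 1 to 10 kb from the TSS, and grey boxes give the quartiles and median of other promoter peaks. In hepatocytes the circles move up with the grey boxes, to medians of 0.31 and 0.26 at 24 h, and in macrophages both stay near 0.

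Against other promoter peaks, the increase was similar in size. Median log2 fold changes of the 81 mitoribosomal promoter peaks were −0.04, 0.13, 0.21 and 0.31 at 3, 8, 16 and 24 h, and those of the 16270 other promoter peaks were 0.01, 0.12, 0.16 and 0.26. The shares that opened were 2.47%, 16.0%, 25.9% and 49.4% of mitoribosomal promoter peaks and 8.83%, 19.0%, 20.2% and 41.1% of other promoter peaks. No mitoribosomal promoter peak closed at any of the 4 times by limma on the deposited scale, and none did by edgeR or DESeq2. Few other promoter peaks closed by limma on that scale: 4.2%, 4.25%, 3.03% and 2.37% at 3, 8, 16 and 24 h. With libraries centred on the median of other promoter peaks, limma called 2 of them closed at 3 h (55 bp upstream of Mrpl22 and 709 bp inside Mrps18b), 1 at 8 h (5 bp upstream of Mrps28), 1 at 16 h (34 bp upstream of Mrps9) and 0 at 24 h. The Mrps28 peak was also called closed at 8 h with libraries centred on other peaks within 10 kb. These 4 peaks were chosen after their values were seen. At an unadjusted limma p under 0.05, 4 of the 81 mitoribosomal promoter peaks were lower at 3 h and 0 at each later time. Of the 16270 other promoter peaks, 1418, 950, 738 and 530 were lower at 3, 8, 16 and 24 h. By gene, 2, 11, 17 and 31 of the 62 genes with a promoter peak had one that opened. Other genes were not counted this way, so these counts have no background. The 2 subunits gave like values at 24 h, with 26 of 55 large subunit promoter peaks opened (median 0.31) and 13 of 24 small subunit promoter peaks (median 0.33). At 3, 8 and 16 h the medians were −0.04, 0.18 and 0.20 for the large subunit and −0.06, 0.08 and 0.21 for the small.

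The largest of the 4 log2 fold changes fell at 24 h for 51 of the 81 promoter peaks, at 16 h for 15, at 8 h for 12 and at 3 h for 3. Other promoter peaks were not counted this way, and their median was also largest at 24 h (0.26). Of all 95 peaks, 40 opened at no time, 32 at 1 time, 16 at 2 times, 5 at 3 times and 2 at every time. Those shares are 42.1%, 33.7%, 16.8%, 5.26% and 2.11%, and over all tested peaks they were 55.5%, 22.9%, 13.4%, 6.54% and 1.68%. The 24 peaks that opened at 16 h and the 43 that opened at 24 h had 16 in common, which is 66.7% of the first and 37.2% of the second. Over all tested peaks the same shares were 50.6% and 38.0%. Each time had its own fed and fasted mice, so the fold changes of different times share no mice. The calls are not independent, since each peak's spread was estimated over all 8 groups together.

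The median level of mitoribosomal promoter peaks in each mouse shows both groups. On the log2 scale its mean in fasted mice was 6.14 at 3 h, 6.35 at 8 h, 6.51 at 16 h and 6.39 at 24 h, and in fed mice 6.14, 6.21, 6.27 and 6.10 (n = 4 each). Between 16 and 24 h the level was thus lower at the later time in both groups, and more so in fed mice. By mouse, the median was 5.93 to 6.24 in the 4 fed mice and 6.34 to 6.46 in the 4 fasted mice of 24 h, with no overlap. At 16 h it was 6.19 to 6.40 in fed and 6.41 to 6.64 in fasted mice, again without overlap, and at 8 h the groups overlapped (6.11 to 6.32 and 6.18 to 6.45). Other promoter peaks moved likewise at 24 h, from 6.05 to 6.20 in fed mice to 6.27 to 6.46 in fasted mice. Peaks over 10 kb from any TSS did not: they were at 5.54 to 5.58 in fed and 5.48 to 5.52 in fasted mice. The sum of normalized reads over all peaks also rose at 24 h, from 3067600 to 3182740 in fed mice to 3337190 to 3576370 in fasted mice, and its part in the promoter values was not tested.

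**Figure D2:**
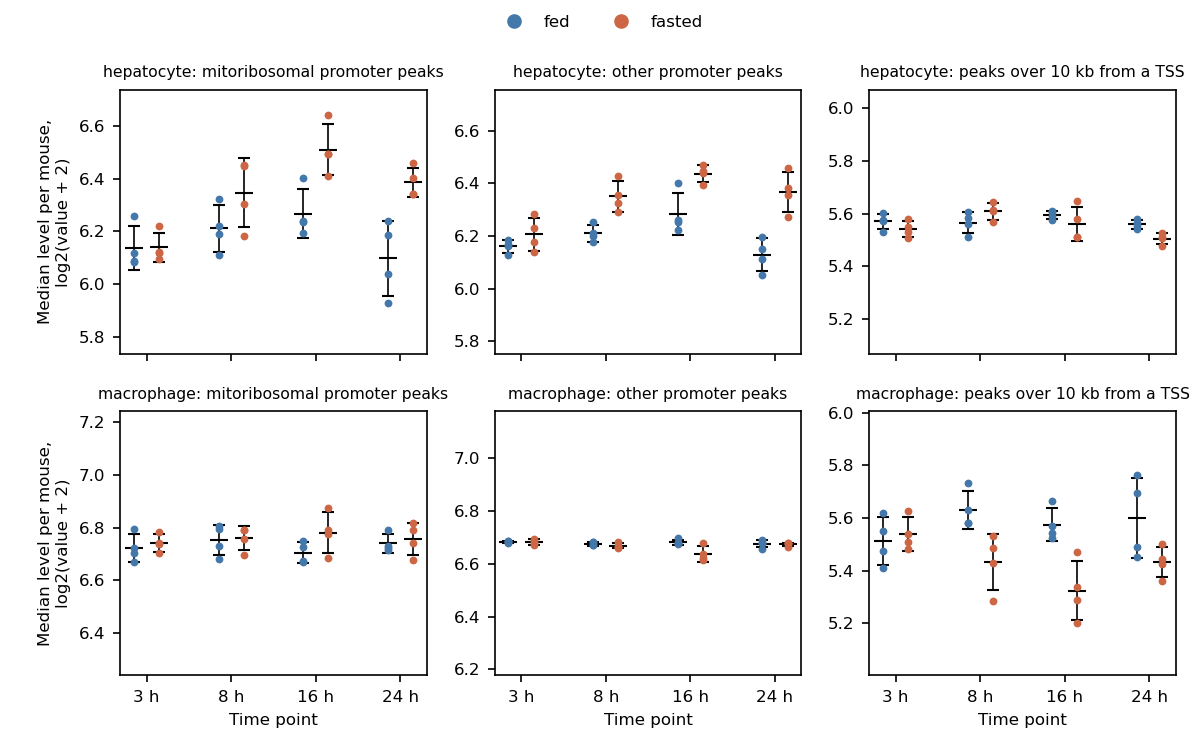
Median log2(value + 2) in each mouse (points; bars are mean ± SD, n = 4) of mitoribosomal promoter peaks, other promoter peaks and peaks over 10 kb from a TSS, in hepatocytes (top) and macrophages (bottom), by time point. The y axes of all panels span the same range of log2 units but not the same levels. At 24 h the fasted hepatocyte points (6.34 to 6.46) stand above the fed ones (5.93 to 6.24) for mitoribosomal promoters.

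Most other promoter peaks had a higher value in fasted mice at 24 h (86.5% of them, with 41.1% opened and 2.37% closed). The counts differed with the scale to which libraries were brought and with the test. With each hepatocyte library centred on its other promoter peaks, 4 mitoribosomal peaks opened and 4 closed at 24 h, in place of 43 and 1. The same scale gave 4 opened and 2 closed at 16 h, 6 and 5 at 8 h, and 5 and 5 at 3 h. Centring on all peaks gave 28 opened and 1 closed at 24 h, centring on other peaks within 10 kb gave 14 and 3, edgeR with its own scaling gave 15 and 4, and DESeq2 gave 14 and 3. These 5 are called the other scalings below, although edgeR and DESeq2 also change the test. The shares of other peaks called under them are not given here, so these counts do not set the mitoribosomal peaks apart. The authors' deposited tables of fold changes listed 24 mitoribosomal peaks up and 1 down at 24 h, and 6 and 3, 10 and 3, and 12 and 1 at 3, 8 and 16 h. At 24 h the authors' median log2 fold change over the 95 peaks was 0.29, and that by limma 0.28. The 4 peaks that opened at 24 h relative to other promoters were those 32 bp upstream of Mrpl50, 30 bp upstream of Mrpl9, 319 bp upstream of Mrps18b and 709 bp inside Mrps18b. The 4 that closed were at 1391 bp in Mrpl15, 7517 bp upstream of Mrpl4, 6157 bp upstream of Mrpl45 and 6384 bp in Mrps21. None of these closed peaks is a promoter peak.

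**Figure D3:**
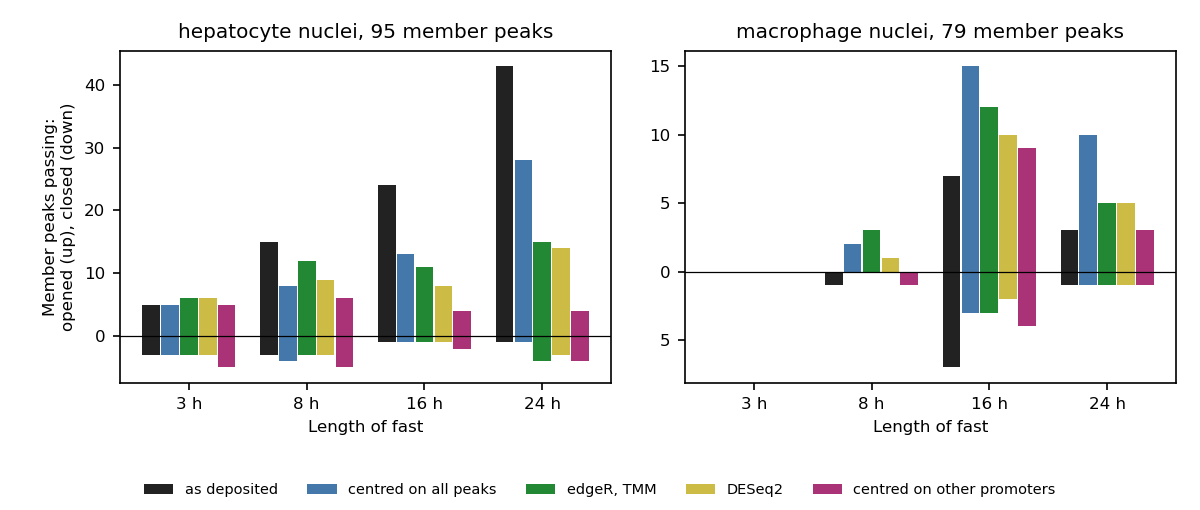
Number of mitoribosomal peaks (member peaks) that passed an adjusted p of 0.05 as opened (bars above 0) or closed (bars below 0) in hepatocytes (left) and macrophages (right), at each length of fast, under 5 ways of scaling or testing. At 24 h in hepatocytes the number opened goes from 43 as deposited to 4 when libraries are centred on other promoter peaks. The 2 panels have different y axes.

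Mrpl50, a protein of the large subunit, had a promoter that opened at 8, 16 and 24 h. Its peak (chr4:49521015-49521215, annotated promoter-TSS) read 155, 165, 166 and 185 normalized reads in fed mice and 223, 225, 233 and 235 in fasted mice at 16 h. At 24 h it read 119, 143, 152 and 156 in fed mice and 180, 199, 208 and 227 in fasted mice. Every fasted mouse stood above every fed mouse at both times. The log2 fold changes were 0.45 (SE 0.09, limma adjusted p = 0.00029) at 16 h and 0.51 (SE 0.09, limma adjusted p = 9.7e-05) at 24 h, after 0.08 at 3 h and 0.28 at 8 h. The call at 8 h passed under 1 of the 5 other scalings (edgeR), and those at 16 and 24 h under all 5. Relative to other promoters they were 0.30 and 0.27 and still passed (limma adjusted p = 0.0044 and 0.011). The fasting effect differed between times for this peak (limma F test, adjusted p = 0.043). Zfp189, a zinc finger gene, starts head to head with Mrpl50. The same peak in macrophages read 171 to 199 in fed and 186 to 199 in fasted mice at 24 h, and the groups overlapped.

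Mrps18b, 1 of the 3 mammalian relatives of a bacterial small subunit protein, had 3 peaks, and all of them opened at 24 h. The one 319 bp upstream (chr17:35916659-35916859) read 162, 164, 164 and 183 in fed mice and 211, 236, 237 and 239 in fasted mice at 24 h, without overlap (log2 fold change 0.45, SE 0.08, limma adjusted p = 8.2e-05). The one 709 bp inside the gene (chr17:35915631-35915831, intron 1 of 5) read 23.9, 28, 30.6 and 31.2 in fed and 37.6, 42.7, 44.5 and 58.1 in fasted mice. It had the largest increase of any mitoribosomal peak at 24 h (log2 fold change 0.64, SE 0.16, limma adjusted p = 0.0026). At 8 h its groups overlapped and the log2 fold change was 0.10. Both of these calls at 24 h passed under all 5 other scalings, and that of the third peak, 12 bp upstream, under 1. Ppp1r10 starts head to head with Mrps18b, 756 bp away, so the peak 319 bp upstream lies between the starts of both genes.

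Mrpl9, a large subunit protein, and Mrpl36, another, opened by similar amounts. The peak 30 bp upstream of Mrpl9 (chr3:94443206-94443406), which covers the NRF1 letters shown above, read 36.6, 41.1, 47.6 and 48.9 in fed mice and 57.3, 66.7, 69.4 and 76.8 in fasted mice at 24 h. That is a 1.53-fold difference with no overlap (limma adjusted p = 0.00097, and 0.047 relative to other promoters). The peak 38 bp upstream of Mrpl36 (chr13:73330871-73331071) read 50.1, 54.2, 63.7 and 66.2 in fed and 84.7, 85.5, 86.8 and 102 in fasted mice at 8 h. All fasted mice were above all fed mice, with a log2 fold change of 0.60 (SE 0.12, limma adjusted p = 0.00013). At 16 h the groups overlapped (0.11), and at 24 h they stood apart again (0.53), with a fasting effect that differed between times (limma F test, adjusted p = 0.013).

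Mrpl34, whose bacterial relative is a small protein of the large subunit, was among the most open promoters. Its peak 237 bp upstream (chr8:71464589-71464789) read 160, 160, 169 and 175 in fed and 202, 202, 222 and 240 in fasted hepatocytes at 24 h, without overlap (1.30-fold, limma adjusted p = 0.00036). It did not pass relative to other promoters (limma adjusted p = 0.078). Mrps14, the most open gene of the set, read 194, 207, 212 and 217 in fed and 215, 258, 272 and 290 in fasted mice at its peak 157 bp upstream. Its groups overlapped slightly, and the peak passed (log2 fold change 0.31, limma adjusted p = 0.0029), as it did under 1 of the 5 other scalings. Mrps34 (7 bp upstream, 1.55-fold at 16 h), Mrps7 (log2 fold change 0.62 at 24 h) and Mrpl45 (88 bp upstream, 1.40-fold at 24 h), chosen after their values were seen, were further promoters that opened. The Mrps34 call passed under all 5 other scalings, the Mrps7 call under 4 and the Mrpl45 call under 1. Mrpl45 holds the ribosome at the inner membrane.

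The single largest change at 3, 8 and 16 h was at a peak in Mrpl17 away from the TSS. Of the 14 hepatocyte peaks that lay 1 to 10 kb from the TSS, 3 opened and 3 closed at 3 h, 2 and 3 at 8 h, and 3 and 1 at both 16 and 24 h. Of the 10439 other peaks at this distance, 11.7% opened and 12.8% closed at 3 h, 20.2% and 16.9% at 8 h, 19.3% and 14.4% at 16 h, and 19.6% and 12.4% at 24 h. The 3 opened at 24 h, of Mrpl17, Mrpl39 and Mrps27, became 0 under each of the 5 other scalings, with 1 to 4 closed. At 3 h 2 of the 81 promoter peaks opened, both downstream of the TSS: 299 bp inside Mrps9 and 335 bp inside Mrpl38. Among libraries of 3 h, the 1 peak of stellate cell and fibroblast markers (1 of 9 genes) read 10.3 to 24.7 in fed and 51.5 to 68.7 in fasted mice, and the 1 peak of macrophage markers (1 of 15 genes) 28.2 to 33.4 and 18.5 to 24.5, and their part in the 3 h values was not tested.

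Mrpl17, a large subunit protein beside the exit of the peptide tunnel, carried the peak with the largest change, in its 3′ UTR (exon 3 of 3, 4146 bp from the TSS, chr7:105806841-105807041). It read 19.6, 21.9, 22.9 and 23.7 in fed mice and 53.0, 53.5, 66.8 and 74.2 in fasted mice at 3 h. At 8 h it read 13.9, 14.9, 23.9 and 28 in fed mice and 71.0, 74.7, 76.3 and 80.4 in fasted mice. Fasted mice were above fed mice at all 4 times without overlap, with log2 fold changes of 1.40, 1.86, 1.13 and 0.55 (limma adjusted p = 3.0e-06, 5.1e-09, 3.3e-05 and 0.028). The calls at 3, 8 and 16 h passed under all 5 other scalings, and the call at 24 h under 0 of them (log2 fold change 0.31 to 0.47, adjusted p = 0.070 to 0.30). The effect differed between times (limma F test, adjusted p = 0.0051). The fed mean was 20.2 at 8 h and 50.4 at 24 h (SD 6.87 and 13.0, n = 4), and the fasted mean 75.6 and 72.9. The promoter peak 67 bp inside the same gene opened at 8, 16 and 24 h. Its log2 fold changes were 0.54, 0.35 and 0.31 (limma adjusted p = 0.00050, 0.021 and 0.038). The call at 8 h passed under all 5 other scalings, and those at 16 and 24 h under 0 of them.

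Mrpl39, a large subunit protein, named the peak nearest to the 10 kb limit, 9607 bp upstream in intergenic DNA (chr16:84744809-84745009). Its means were 18.4 ± 5.12 in fed and 34.2 ± 9.35 in fasted mice at 3 h, and 13.0 ± 2.88 and 29.7 ± 3.88 at 8 h (SD, n = 4). On the deposited scale it passed at all 4 times, with log2 fold changes of 0.83, 1.09, 0.89 and 0.56. The calls at 3, 8 and 16 h passed under all 5 other scalings, and the call at 24 h under 0 of them (log2 fold change 0.32 to 0.49, adjusted p = 0.080 to 0.28). The groups overlapped at 16 h, when 1 fed mouse read 42.3 and the other 3 read 19.6 to 21.3. The next peak out, 10795 bp upstream and beyond the limit, had log2 fold changes of 0.81, 0.91, 0.49 and 0.29. In macrophages the peaks on either side of the limit were 8517 bp inside Mrps27 and 11383 bp upstream of Mrpl33.

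Mrps9 and Mrpl38 opened early inside the gene. The Mrps9 peak (intron 1 of 10, chr1:42851432-42851632) read 25.8, 26.1, 27.6 and 28.2 in fed and 54.5, 56.5, 59.5 and 77.4 in fasted mice at 3 h, a 2.19-fold difference without overlap (limma adjusted p = 3.3e-05). At 8 h the groups overlapped, with a log2 fold change of 0.59, and the effect differed between times (limma F test, adjusted p = 0.029). The Mrpl38 peak (exon 2 of 9, chr11:116138433-116138633) read 15.5, 15.8, 16.7 and 21.0 in fed and 26.5, 27.3, 36.3 and 42.4 in fasted mice at 3 h (1.80-fold, limma adjusted p = 0.0039).

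Peaks inside Mrpl15 and Mrpl23, both of the large subunit, closed at 3 and 8 h and did not pass later on the deposited scale. The Mrpl15 peak (1391 bp, intron 1 of 4, chr1:4784235-4784435) read 62.2, 78.8, 79.1 and 81.1 in fed and 33.4, 39.3, 47.5 and 49.7 in fasted mice at 3 h. Its log2 fold changes were −0.81, −0.76, −0.14 and −0.18 at 3, 8, 16 and 24 h (limma adjusted p = 3.8e-05, 3.4e-05, 0.46 and 0.29). Relative to other promoters it also closed at 24 h (log2 fold change −0.42, limma adjusted p = 0.035). The Mrpl23 peak (2894 bp, intron 2 of 4, chr7:142535911-142536111) read 25.4, 26.8, 33.9 and 35.9 in fed and 7.64, 9.78, 17.5 and 20.5 in fasted mice at 3 h. No fasted mouse reached the lowest fed mouse for either peak at 3 or 8 h. The Mrpl23 log2 fold changes were −1.11, −1.14, 0.07 and −0.19, and both peaks had an effect that differed between times (limma F test, adjusted p = 0.0074 for Mrpl15 and 0.0096 for Mrpl23). The promoter peaks of the same genes behaved otherwise: that of Mrpl23 at 65 bp opened at 8, 16 and 24 h, with log2 fold changes of 0.83, 0.44 and 0.57. Under the 5 other scalings the call at 8 h passed in 5, that at 16 h in 0 and that at 24 h in 2.

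The peak 7517 bp upstream of Mrpl4, a large subunit protein, closed at 8 and 24 h. This intergenic peak (chr9:20995120-20995320) read 29.7, 36.6, 37.9 and 50.3 in fed and 15.6, 17.1, 17.9 and 26 in fasted mice at 24 h, a 1.93-fold difference without overlap (limma adjusted p = 0.0014). At 16 h the difference lay in the same direction and the groups overlapped (log2 fold change −0.43, limma adjusted p = 0.13). Mrps27, a small subunit protein that binds RNA, had a peak in intron 2 of 10 (8517 bp, chr13:99353203-99353403) that changed direction. It read 150, 154, 162 and 176 in fed and 116, 121, 124 and 130 in fasted mice at 3 h, and 140, 143, 148 and 158 in fed and 170, 175, 176 and 187 in fasted mice at 24 h. The groups did not overlap at either time, and the log2 fold changes were −0.38 and 0.26 (limma adjusted p = 0.0023 and 0.022). The second passed under 0 of the 5 other scalings, and relative to other promoters it was 0.03 (limma adjusted p = 0.88). The effect differed between times (limma F test, adjusted p = 0.0030).

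A pair of peaks in intron 2 of 2 of Mrps21, a small subunit protein, differed widely between times of day in fed mice. The one at 6100 bp (chr3:95865314-95865514) had fed means of 43.0 ± 1.98 at ZT15, 15.5 ± 5.18 at ZT20, 10.01 ± 1.92 at ZT4 and 78.9 ± 10.7 at ZT12 (SD, n = 4). The level in fed mice differed between times with a limma F test adjusted p of 4.1e-11. Fasted means were 76.0, 24.0, 9.38 and 61.7 at these times. At 3 h every fasted mouse (65 to 88.8) was above every fed mouse (41.3 to 44.9), with a log2 fold change of 0.79 (limma adjusted p = 0.013), and at the other times the groups overlapped. The neighbouring peak at 6384 bp (chr3:95865030-95865230) had fed means of 57.6, 28, 22.4 and 88.7 and closed at 16 h (log2 fold change −0.90, limma adjusted p = 0.0010). These 2 peaks lie side by side and are not independent.

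**Figure D4:**
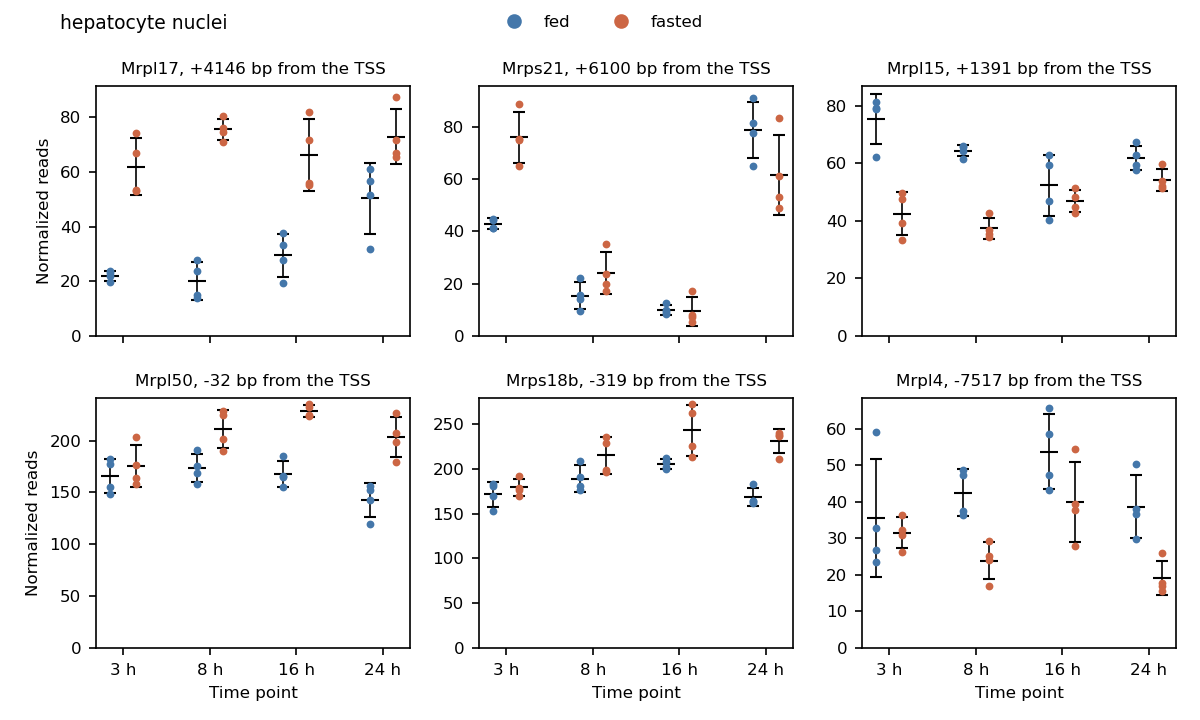
Normalized reads in each mouse (points; bars are mean ± SD, n = 4) of 6 mitoribosomal peaks in hepatocyte nuclei, by time point, fed in blue and fasted in orange. Mrpl17 is apart at every time, Mrps21 falls to fed means of 15.5 and 10.01 at 8 and 16 h and is at 78.9 at 24 h, Mrpl15 is lower in fasted mice at 3 and 8 h, and Mrpl50 and Mrps18b are higher in fasted mice at 24 h.

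Over the whole set, time of day in fed hepatocytes mattered for a minority. The level differed between times in fed mice at 16 of 95 peaks (16.8%), where 21.1% of all tested peaks did. Of these 16, 10 had their highest fed mean at 16 h (ZT4) and 9 their lowest at 24 h (ZT12). Other peaks were not counted this way. The median level of other promoter peaks in fed mice was also highest at 16 h (mean 6.28, log2) and lowest at 24 h (6.13). The fasting effect differed between times at 17 of 95 peaks (17.9%), where 24.1% of all tested peaks did. Of these 17, 11 were among the 81 promoter peaks (13.6%) and 6 among the 14 farther peaks (42.9%). The shares were 18.3% of other promoter peaks and 25.5% of other peaks 1 to 10 kb away. With libraries centred on other promoters, 5 of the 81 promoter peaks passed (6.17%), where 10.6% of other promoter peaks did.

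In macrophages, few mitoribosomal peaks passed at 3, 8 and 24 h, and at 16 h as many opened as closed. Of the 79 peaks, 0 opened and 0 closed at 3 h by limma, where 1.68% and 0.139% of all tested peaks did. edgeR and DESeq2 also called 0, and 0 were higher and 2 lower at an unadjusted limma p under 0.05. At 8 h 0 opened and 1 closed (background 1.63% and 4.96%), with 2 higher at an unadjusted limma p under 0.05. edgeR called 3 opened and DESeq2 1. At 16 h 7 opened (8.86%) and 7 closed (8.86%), where 3.79% of all tested peaks opened and 17.5% closed. At 24 h 3 opened and 1 closed, where 3% opened and 8.28% closed. Median log2 fold changes of the 73 promoter peaks were −0.02, 0.00, 0.03 and −0.00, and those of the other promoter peaks −0.01, −0.00, −0.02 and 0.01. With libraries centred on all peaks, the medians were 0.12 at 8 h and 0.10 at 24 h, with 87.7% and 89% of the 73 above 0 and 2 and 10 of them opened. On that scale the other promoter peaks had medians of 0.11 at both times. The share of them that opened on that scale is not given here, so the counts do not set the mitoribosomal peaks apart.

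The 16 h counts in macrophages differed with scaling and with the mice that were kept. Centring on all peaks gave 15 opened and 3 closed, edgeR 12 and 3, DESeq2 10 and 2, and centring on other promoters 9 and 4. Shares of other peaks under these settings are not given here, so the counts have no background. Without fasted replicates 1 and 4 of that time, which stood apart from the other fasted mice in the first principal component or in depth, 1 peak opened and 0 closed, from 2 fasted mice. A test with fewer mice also has less power, and no other pair was left out, so this fall cannot be assigned to these 2 mice. Without fed replicate 3 or fasted replicate 1 alone, 9 peaks passed in place of 14. The authors' deposited table listed 6 up and 4 down. Macrophage marker peaks (15 of 15 genes) summed to 2964 to 3213 in fed and 2351 to 2942 in fasted mice of 16 h, without overlap, and their part in the 16 h values was not tested.

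The promoter peaks that opened at 16 h belonged to Mrpl23, Mrps18b (2 peaks), Mrpl45, Mrpl22, Mrpl15 and Mrps12. The peak 65 bp inside Mrpl23 (chr7:142533082-142533282) read 45.4, 48.5, 51.3 and 52.6 in fed and 65.3, 65.4, 71.3 and 78.1 in fasted mice, without overlap (1.40-fold, limma adjusted p = 0.0057). The peak 12 bp upstream of Mrps18b (chr17:35916352-35916552) read 148, 157, 159 and 173 in fed and 186, 206, 209 and 220 in fasted mice, without overlap (1.28-fold, limma adjusted p = 0.0022). Neither passed without fasted replicates 1 and 4 (limma adjusted p = 0.13 for Mrpl23 and 0.069 for Mrps18b).

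The peak 88 bp upstream of Mrpl45 (chr11:97315528-97315728) was the single macrophage mitoribosomal peak whose fasting effect differed between times (limma F test, adjusted p = 0.033), where 3.49% of all tested peaks did. It read 95.3, 96.0, 99.7 and 101 in fed and 110, 115, 138 and 144 in fasted mice at 16 h, all fasted above all fed. At 3 and 8 h its groups overlapped, with log2 fold changes of −0.17 and −0.15. Without fasted replicates 1 and 4 its 16 h value was 0.20 and did not pass (limma adjusted p = 0.32).

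Of the 7 peaks that closed at 16 h, 4 were among the 6 that lay 1 to 10 kb out. Of the 5746 other peaks at that distance 20.7% closed, and of other promoter peaks 8.16%. The intergenic peak 1094 bp upstream of Mrps28, a small subunit protein (chr3:8924851-8925051), read 35.4, 39.4, 40.3 and 46.2 in fed and 19.3, 20.8, 29.7 and 33.5 in fasted mice at 16 h, without overlap (limma adjusted p = 0.0064). It closed at 24 h too, from 46.9 ± 10.1 to 28.7 ± 8.01 (SD, n = 4; limma adjusted p = 0.0056), although 1 fasted mouse at 40.6 lay among the fed mice. The peaks 3734 bp upstream of Mrpl16 (chr19:11766581-11766781), 7447 bp upstream of Mrpl38 (chr11:116146215-116146415) and 7874 bp from the Mrps12 TSS (chr7:28732847-28733047) had log2 fold changes of −0.69, −0.79 and −0.43 with overlapping groups.

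The last 2 of these peaks lie in other genes: the Mrpl38 peak in intron 26 of 30 of Fbf1, and the Mrps12 peak in intron 3 of 6 of Fbxo17. At 8 h the 1 closed peak, 5455 bp upstream of Mrpl4 (chr9:20997182-20997382), had a mean of 32.4 ± 4.45 in fed and 20.7 ± 6.68 in fasted mice (SD, n = 4; limma adjusted p = 0.033). Leaving out any 1 of 6 of those 8 mice ended its call. No mitoribosomal peak differed between times in fed macrophages by limma, edgeR or DESeq2, where 1.63% of all tested peaks did by limma, and 6 had an unadjusted limma p under 0.05.

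**Figure D5:**
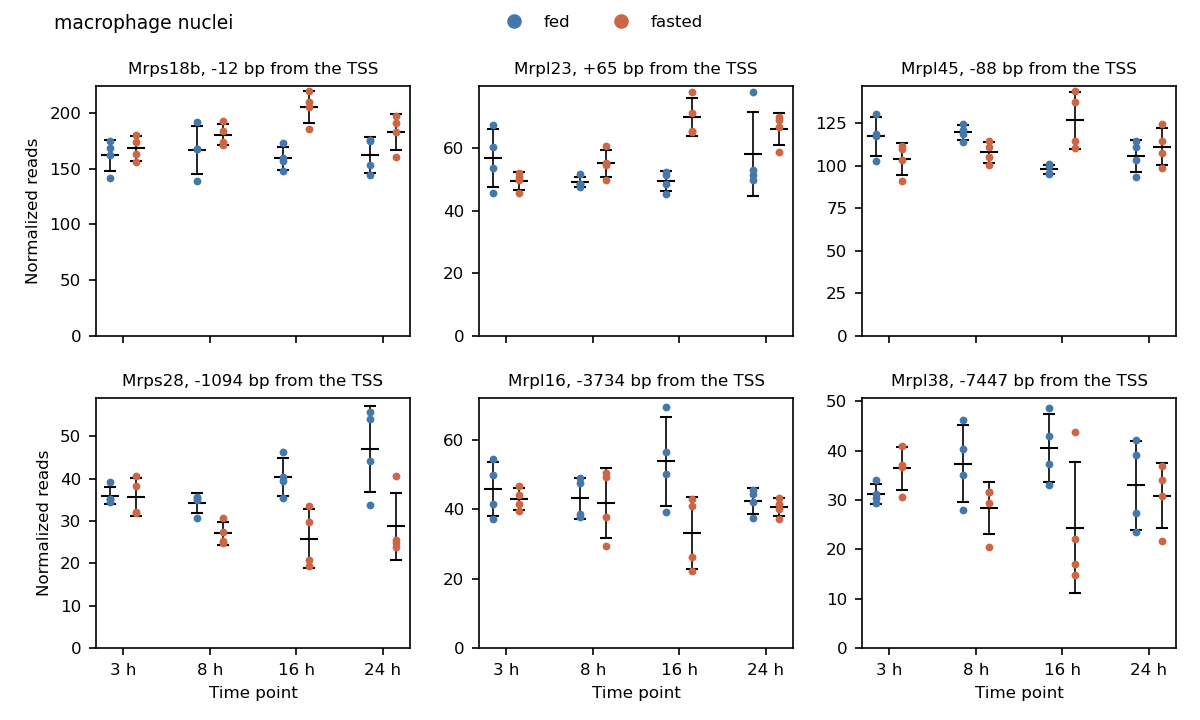
Normalized reads in each mouse (points; bars are mean ± SD, n = 4) of 6 mitoribosomal peaks in macrophage nuclei, by time point, fed in blue and fasted in orange. At 16 h the promoter peaks of Mrps18b, Mrpl23 and Mrpl45 (top) are higher in fasted mice and the farther peaks near Mrps28, Mrpl16 and Mrpl38 (bottom) are lower on average. A single fasted mouse reads 43.7 at the Mrpl38 peak, among the fed mice.

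For the 74 peaks listed in both tables, the hepatocyte and macrophage values are set side by side, and their difference was not tested, since the tables were normalized separately. The hepatocyte log2 fold change was the larger of the pair at 30, 52, 62 and 71 of the 74 peaks at 3, 8, 16 and 24 h, which is 40.5%, 70.3%, 83.8% and 95.9%. Over all 13984 tested peaks listed in both tables it was the larger at 48.4%, 72.5%, 81.4% and 90.2%. At 24 h the medians were 0.30 in hepatocytes and 0.00 in macrophages. Of these 74 peaks, 38 opened at 24 h in hepatocytes and 3 in macrophages, and all 3 of the latter were among the 38. Over all peaks that both tables list, 44% opened in hepatocytes and 3.66% in macrophages at 24 h, and 82.4% of the latter also opened in hepatocytes. They were 319 bp upstream of Mrps18b, 237 bp upstream of Mrpl34 and 14 bp inside Mrpl48. In macrophages the Mrps18b peak read 235, 251, 262 and 270 in fed and 278, 299, 319 and 320 in fasted mice, without overlap (1.19-fold, limma adjusted p = 0.0055). The Mrpl48 peak (chr7:100607508-100607708) read 174, 179, 181 and 190 in fed and 201, 211, 217 and 222 in fasted mice, also without overlap (1.17-fold, limma adjusted p = 0.027). Leaving out any 1 of 5 of the 8 mice ended the Mrpl48 call, and any 1 of 7 of the 8 ended the macrophage Mrpl34 call. At 16 h 18 opened in hepatocytes and 7 in macrophages, and 2 in both, which is 11.1% of the first and 28.6% of the second. Over all peaks in both tables these shares were 17.1% and 55.9%. Across these 74 peaks the 2 cell types' log2 fold changes at 16 h had a Pearson r of 0.49 and a Spearman rho of 0.48. At 24 h they were 0.39 and 0.41, and at 3 h 0.08 and 0.06. Peaks of 1 table share their libraries and are not independent replicates.

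Peaks within 10 kb of genes that work with the mitochondrial ribosome were described in the same way. In hepatocytes at 24 h, 12 of 24 peaks of mitochondrial transcription and RNA processing genes passed, as did 13 of 34 of ribosome assembly and rRNA modification genes, and all of these opened. Of the peaks of mitochondrial tRNA synthetase genes 10 of 28 opened and 1 closed, and of those of translation factor genes 8 of 25 opened and 1 closed. The medians of the 4 lists were 0.30, 0.28, 0.25 and 0.28, against 0.22 for peaks within 10 kb of a TSS other than mitoribosomal ones, of which 32.7% opened and 6.3% closed. At 16 h 6, 8, 1 and 4 peaks of these lists opened (25%, 23.5%, 3.57% and 16%), where 19.8% of such other peaks did, and at 8 h the median of the translation factor peaks was −0.03. With libraries centred on other promoters, 1, 0, 0 and 1 peaks opened and 1, 2, 1 and 1 closed at 24 h. Of mitochondrial ribosome proteins without the Mrp name, 1 of 10 peaks opened at 24 h: that of Aurkaip1 at 6 bp, 1.36-fold.

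Among them, the promoter of Twnk, the mitochondrial DNA helicase, rose from 86.0 ± 12.7 to 126 ± 14.4 at 24 h (SD, n = 4; log2 fold change 0.54, limma adjusted p = 0.00021). A peak 425 bp inside Tfam, which packages and transcribes mitochondrial DNA, opened at 8 and 16 h (log2 fold changes 0.58 and 0.60). Dap3, a small subunit protein outside the Mrp names, opened 234 bp upstream at 3 h, from 39.4 ± 7.02 to 67.8 ± 6.28 (SD, n = 4; limma adjusted p = 0.00048). The largest change was a loss: the peak 4122 bp inside Gfm1, a mitochondrial elongation factor, fell from 44.6 ± 2.52 to 11.9 ± 0.967 at 8 h (SD, n = 4; log2 fold change −1.75, limma adjusted p = 3.6e-09). It closed also at 3 and 16 h (−1.02 and −1.09). The peak 7838 bp inside Nars2, the mitochondrial asparaginyl-tRNA synthetase, closed at 24 h (−1.40). In macrophages these 4 lists had medians from −0.11 to 0.05 at the 4 times, and at most 2 peaks of any list passed at a time, apart from 3 of 33 assembly and rRNA modification peaks at 16 h.

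In hepatocytes at 24 h, promoter peaks of genes with the NRF1 letters had a median log2 fold change of 0.30 (7 genes) and those without had 0.31 (44 genes). With and without the ETS letters the medians were 0.27 and 0.32, and with and without the YY1 letters 0.30 and 0.31. These are descriptions of few genes, with no test.

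The libraries held 2458156 to 6098645 reads in peaks in hepatocytes and 1729720 to 4637870 in macrophages. Peaks within 10 kb of the TSS of 15 hepatocyte marker genes summed to 5539 to 8121 normalized reads in hepatocyte libraries, all 15 genes having a peak. In macrophage libraries 2 of these 15 genes had a peak, and the sum was 319 to 471. Macrophage markers summed to 2351 to 3528 in macrophage libraries, and in hepatocyte libraries 1 of 15 had a peak, with a sum of 6.11 to 35.3. The hepatocyte marker sum moved with the fast at 24 h, from 5539 to 6134 in fed mice to 7300.3 to 8121 in fasted mice, and its part in the promoter values was not tested. In macrophage libraries of 8 h the hepatocyte marker sum was 335 to 382 in fed and 397 to 440 in fasted mice, and that of lymphocyte markers (2 of 10 genes with a peak) 87.3 to 104 and 51.7 to 78.0, and their part in the 8 h values was not tested. Sums for sinusoidal endothelial markers (2 of 10 genes with a peak) were 71.9 to 145 in hepatocyte libraries.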

How the data were processed

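ATAC-seq was done on hepatocyte and macrophage nuclei. The deposited tables, 1 per cell type, give each peak's normalized read count in each mouse (a signal scaled per library), the authors' log2 fold changes and adjusted p-values, and the nearest gene, per the file headers. BWA 0.7.5a-r405, SAMtools, HOMER, DESeq2 and mm10 are named in the submitters' processing notes. Values were whole multiples of 1 step per library (tolerance 0.01 read), so read counts were recovered from the deposited values. Peaks with a mean of at least 10 were tested with limma 3.58.1 (R 4.3.3) on log2(value + 2), fitting 8 groups in each table and letting the prior variance follow the level. P-values were adjusted by Benjamini-Hochberg over 46827 hepatocyte and 30170 macrophage peaks. The effect of time was tested with moderated F tests. Alternatives were edgeR 4.0.16 and DESeq2 1.42.0 on recovered reads, other offsets, filters, centring, a block by library number, and leaving out each mouse. The script was tested on simulated data. Peaks named in the text were the up to 3 opened and 3 closed of smallest p per time, 1 per gene, those of smallest F test p, the highest, lowest and nearest to the limit, and members that pass in both tables, with exceptions stated. The members and lists were chosen with earlier results of these data known. The labels call the 4 samples of a group separate mice, and p-values measure the spread between them. Precision is limited by 4 mice a group and by the reads given in the results.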

Additional observations from a re-analysis of the deposited data

Results flagged for a closer look

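Among groups of 4 mice tested for a sample that stood apart from the other 3, 7 of 78 had one, and chance gives about 1 in 20. In hepatocytes the Mrpl15 peak at 1391 bp read 62.2 in 1 fed mouse of 3 h, below the other 3 (78.8 to 81.1), and the Mrpl36 peak 38 bp upstream read 102 in 1 fasted mouse of 8 h, above the other 3. The Mrpl39 peak 9607 bp upstream read 42.3 in 1 fed mouse of 16 h, about the level of the fasted mice of that time. The Mrps18b peak 319 bp upstream had 1 fed mouse at 183, above the other 3, and 1 fasted mouse at 211, below the other 3, at 24 h, and the groups still did not overlap. In macrophages at 24 h, the median level of mitoribosomal promoter peaks was 6.79 (log2) in 1 fed mouse, above the other 3. The Mrps28 peak 1094 bp upstream read 40.6 in 1 fasted mouse of 24 h, among the fed values.

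The effect of fasting differed between times by the limma F test at 11 of the named peaks. In hepatocytes these were Mrpl17 at 4146 bp (adjusted p = 0.0051), Mrps9 at 299 bp (0.029), Mrpl15 at 1391 bp (0.0074), Mrpl23 at 2894 bp (0.0096), Mrps27 at 8517 bp (0.0030) and Mrpl36 (0.013). They included also Mrpl50 (0.043), both Mrps21 peaks (0.0060 at 6384 bp and 0.017 at 6100 bp) and Mrps18b at 709 bp (0.0050). In macrophages the peak was that of Mrpl45 (0.033). The Mrps27 peak closed at 3 h and opened at 24 h, and the others differed in the size of the effect or passed at some times alone.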

How the results depend on the processing

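No paired analysis was possible because replicate numbers were given in accession order and do not pair mice across groups. A block by library number left every count within 1.5 times its reported value. The 31 calls named for the smallest p at their time were checked under alternatives, with 626 checks in all. Of these checks, 590 stayed on the same side of the threshold in the same direction, 36 no longer passed and 0 reversed. Among the 31, the hepatocyte call that did not always pass was that of Mrpl34. Those in macrophages were of Mrpl38, Mrpl45, Mrps18b, Mrpl16, Mrpl48, Mrpl23, Mrps12, Mrpl34 and Mrpl4. Other calls described above were not among the 31. The hepatocyte calls of Mrpl17 at 4146 bp, Mrpl39 and Mrps27 at 24 h, for example, passed under 0 of the 5 other scalings. In hepatocytes, centring on all peaks gave 14 passing peaks at 16 h, 29 at 24 h and 10 that differed between times in fed mice. Centring on other peaks within 10 kb gave 7, 17 and 8, and 11 with an effect that differed between times, with medians of 0.0248, 0.0843 and 0.12 at 8, 16 and 24 h. Centring on other promoters gave 11, 6 and 8 passing at 8, 16 and 24 h, 10 by the test of the effect over time, 7 in fed mice, and medians of −0.00339, 0.0441 and 0.0454. edgeR gave 12, 19, 11 and 8, and DESeq2 9, 17, 10 and 7, for 16 h, 24 h, the effect over time and fed mice, both with a median of 0.15 at 24 h. Using only the 2 groups of 16 h gave 11. Among promoter peaks alone, 2 passed at 3 h and 11 had an effect that differed between times. In macrophages, centring on all peaks gave 2 passing at 8 h, 11 at 24 h and 3 by the effect over time, with medians of 0.11, 0.17 and 0.10 at 8, 16 and 24 h. edgeR gave 3 at 8 h and 3 by the effect over time, with medians of 0.0820, 0.15 and 0.0618, and DESeq2 medians of 0.0755, 0.14 and 0.0607. The median at 16 h was 0.10 centred on peaks within 10 kb. The 2 groups of 16 h alone gave 7, promoter peaks alone 0 at 8 h, and reads in peaks as a covariate 2 by the effect over time. The cause of these changes was not tested. Leaving out fasted replicates 1 and 4 of 16 h, chosen after seeing the data, as were the covariate and the centring on other promoters, gave 1 at 16 h and 0 by the effect over time.

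Leaving out each mouse in turn gave 7 to 8, 13 to 22, 12 to 29 and 26 to 42 passing hepatocyte peaks at 3, 8, 16 and 24 h, 10 to 24 by the effect over time and 8 to 18 in fed mice. The count at 16 h was 12 without fed replicate 1 or fed replicate 2, 16 without fed replicate 4 and 14 without fasted replicate 3, and at 24 h it was 26 without fed replicate 2. The effect over time gave 11 without 3 h fed replicate 2 and 10 without 3 h fasted replicate 4. The fed test gave 8 without 16 h fed replicate 3 and 9 without 24 h fed replicate 2. Macrophage ranges were 0 to 1, 9 to 14 and 2 to 4 at 8, 16 and 24 h and 0 to 2 by the effect over time, where 11 of 32 mice decided the count. At 24 h it was 2 without fed replicate 1 or fasted replicate 3.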
